A study of Homo sapiens with 8 samples.

Results

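A set of 10 genes that buffer, sense and move zinc was followed in LNCaP cells: the metallothioneins MT1E, MT1F, MT1X and MT2A, the zinc sensor MTF1, the zinc exporter SLC30A1, and the zinc importers SLC39A1, SLC39A6, SLC39A7 and SLC39A10. They were chosen by gene symbol, and all were found among the 55737 genes measured. LNCaP is a human prostate cancer line grown from a lymph node metastasis. The cells were treated for 4 hours, and RNA was sequenced from 2 libraries in each of 4 groups: 0.5 µM AT7519 together with 40 µM OSMI-2 (the combination), 0.5 µM AT7519, 40 µM OSMI-2, and control. AT7519 inhibits several cyclin-dependent kinases, among them CDK9, which releases paused RNA polymerase II, and OSMI-2 inhibits O-GlcNAc transferase, which adds the sugar N-acetylglucosamine to proteins of the nucleus and cytosol. Doses are given as in the design text, whereas the sample labels write the same figures in mM. The labels name no genetic change in any group and do not say what the control cells received. All 4 groups are 1 cell line, and nothing in the labels says that the 2 libraries of a group came from separate cultures, so the p-values measure only how far such libraries differ, which may be technical.

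Metallothioneins are small cysteine-rich proteins that bind zinc and copper in the cytosol. When free zinc rises, the zinc-finger protein MTF1 enters the nucleus and binds metal response elements, which drives transcription of metallothionein genes and of SLC30A1, whose product (ZnT1) carries zinc out across the plasma membrane. Proteins of the SLC39 family (ZIP) bring zinc into the cytosol from outside or from organelles. Normal prostate epithelium accumulates more zinc than most tissues, and prostate tumours hold less of it.

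The start regions of MT2A, MT1X and SLC30A1 are shown because they carry the letters of the metal response element that MTF1 binds. Each run is the 250 bases before the start of the gene in RefSeq on GRCh38.p14, written 5′ to 3′ on the strand of the gene. Capitals mark each match to the core letters TGCACNC or TGCGCNC on either strand, so that a match on the other strand reads as GNGTGCA or GNGCGCA. The regions are chr16:56608334-56608583 on the plus strand for MT2A, chr16:56682220-56682469 on the plus strand for MT1X, and chr1:211579162-211579411 on the minus strand for SLC30A1.
MT2A: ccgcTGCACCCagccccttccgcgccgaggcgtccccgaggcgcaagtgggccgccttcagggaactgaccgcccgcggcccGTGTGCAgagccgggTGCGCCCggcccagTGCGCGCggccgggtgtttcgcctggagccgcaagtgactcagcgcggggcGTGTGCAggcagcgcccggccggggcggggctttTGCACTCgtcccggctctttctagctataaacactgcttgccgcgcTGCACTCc
MT1X: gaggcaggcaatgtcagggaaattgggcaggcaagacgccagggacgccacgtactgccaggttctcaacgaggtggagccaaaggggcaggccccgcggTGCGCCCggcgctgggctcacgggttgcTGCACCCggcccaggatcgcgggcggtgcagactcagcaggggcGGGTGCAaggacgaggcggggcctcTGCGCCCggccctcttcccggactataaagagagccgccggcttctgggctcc
SLC30A1: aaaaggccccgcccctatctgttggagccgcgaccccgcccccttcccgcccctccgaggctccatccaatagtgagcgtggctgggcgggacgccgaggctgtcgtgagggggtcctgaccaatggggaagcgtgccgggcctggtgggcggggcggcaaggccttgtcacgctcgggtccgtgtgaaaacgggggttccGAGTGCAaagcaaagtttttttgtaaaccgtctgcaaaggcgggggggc

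The MT2A region held 7 matches, 5 of them to TGCACNC, and the nearest ended 2 bases before the start. The MT1X region held 4 matches, 2 of them to TGCACNC, and the SLC30A1 region held 1, which lay 49 to 43 bases before the start on the opposite strand. RefSeq start regions were at hand for 8 of the 10 members, and not for MT1E and MT1F. The region of SLC39A6 held 1 match, SLC39A1 held 1 at 1 of its starts and 0 at the other, and those of MTF1, SLC39A7 and SLC39A10 held 0. Of 35116 start regions of this length, 24.8% held at least 1 match, 1.58% at least 3 and 0.37% at least 4. Of the genes shown, MT2A rose on the deposited scaling with the combination and with AT7519, MT1X was called in no comparison, and SLC30A1 fell, as described next. Of the others with a match, SLC39A6 rose against control with the combination and with AT7519, and SLC39A1 with AT7519 alone, on the deposited scaling.

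The deposited values are gene read counts divided by 1 size factor per library, here called normalised counts. Libraries held 60152710 to 154367238 reads, and 3 reads, the limit that a count of 0 allows, equalled 1.76 to 5.47 normalised counts, which covers counting error only. The 9 listed luminal prostate markers, KLK3 among them, summed to 457813 to 550126 normalised counts. The basal marker KRT5, the leukocyte marker PTPRC and the endothelial marker CDH5 were at or near 0. Other genes of these lists were not: KRT14, also listed as basal, stood at 40.0 to 104 normalised counts. VWF, also listed for endothelium, stood at 1132 to 1506. The sum of the 4 fibroblast markers moved with treatment, at 3132 to 3742 with the combination, 2549 to 3145 with AT7519, 1844 to 2581 with OSMI-2 and 1951 to 2058 in control. Nearly all of that sum was COL1A1, while COL1A2 and DCN lay below 8 normalised counts in each library and LUM stood at 9.12 to 62.0. The 3 basal markers, nearly all of it KRT14, summed to 75.9 to 106 with the combination, 55.8 to 61.0 with AT7519, 58.9 to 67.9 with OSMI-2 and 41.8 to 53.1 in control. The part of either list in the results below was not tested. Genes averaging 10 or more normalised counts were tested together in 1 limma model on log2(normalised count + 1), and a gene was called, and is said to rise or fall, when its Benjamini-Hochberg adjusted p lay below 0.05. Of the members, 9 were tested, and MT1E was too low.

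Levels were divided by exon length pooled over all annotated transcripts of a gene. For MT2A and MT1X that length equals the whole gene, 1.299 and 1.773 kilobases, so it takes in any introns. Their values may thus be too low for spliced RNA, and the order below holds for this length only. Per kilobase of such exon, MT2A and SLC39A6 were the most abundant members, with control means of 4541 and 7235 normalised counts per kilobase. SLC39A1 followed at 3898 and SLC39A7 at 3409, and SLC30A1 (880) and SLC39A10 (872) lay close together. MTF1 stood at 579, MT1F at 240 and MT1X at 157. With the combination the order changed: MT2A reached 9269 normalised counts per kilobase, near the 10516.5 of SLC39A6, and SLC30A1 and MTF1 were among the lowest, at 188 and 131, beside MT1X at 127.

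**Figure D1:**
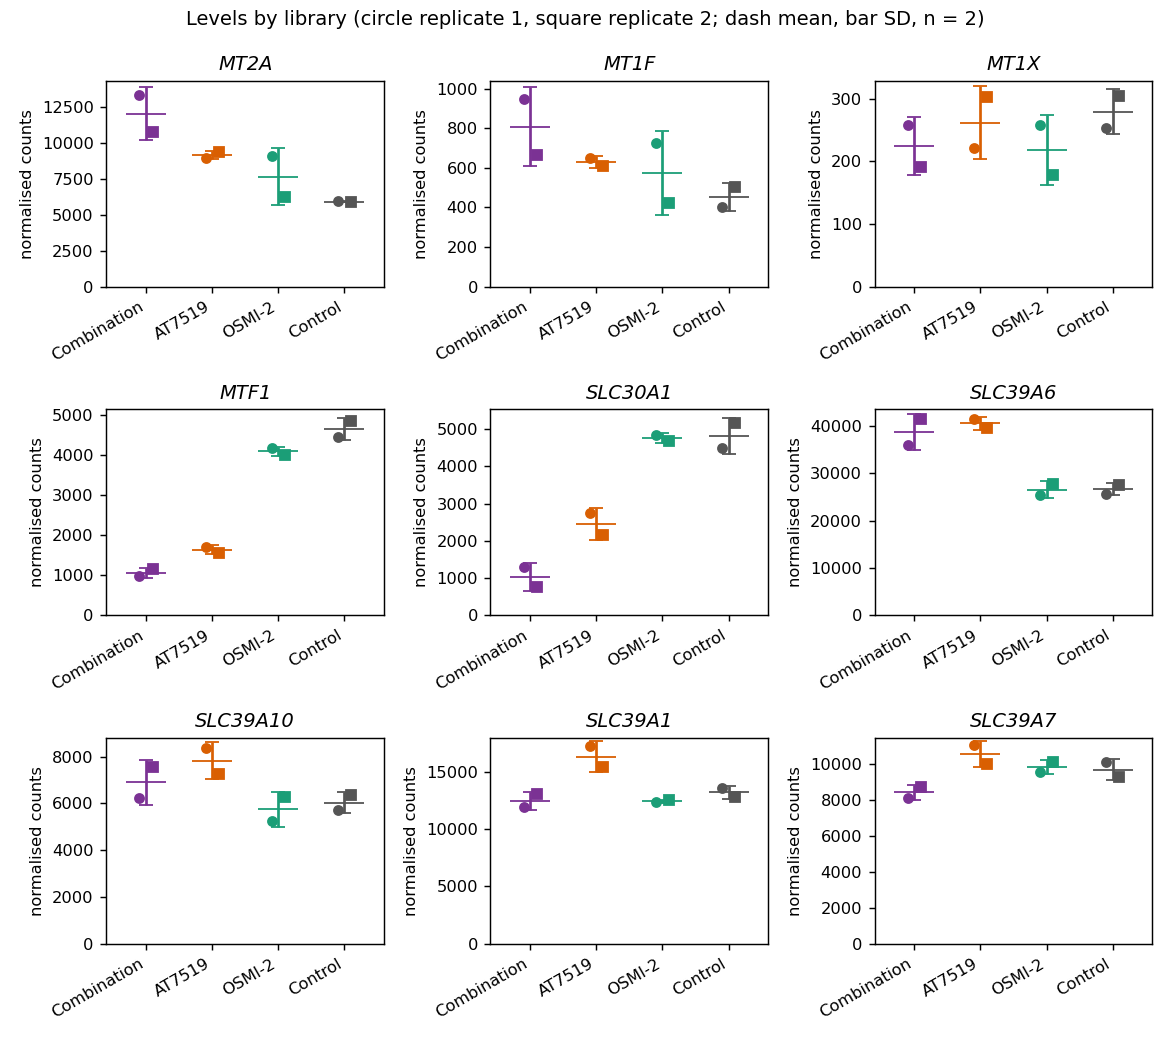
Normalised counts (vertical axes, from 0) of the 9 tested members in each library, with the mean as a dash and the SD as a bar (n = 2), for the combination, AT7519, OSMI-2 and control. MTF1 and SLC30A1 were lowest with the combination, at means of 1054 and 1027, and MT2A was highest there, at 12041.

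MT2A carried most of the metallothionein RNA, 87.9 to 92.6% of the reads of the 4 metallothionein members in every library. It stood at 13349 and 10732 normalised counts with the combination, 8943 and 9350 with AT7519, 9075 and 6249 with OSMI-2, and 5927 and 5870 in control. Both libraries of every treated group lay above both control libraries, and the widest spread was between the OSMI-2 libraries. MT2A rose 2.03-fold with the combination against control (log2 change 1.02 ± 0.14 SE, limma adjusted p = 2.57e-05) and 1.55-fold with AT7519 against control (0.63 ± 0.14, adjusted p = 0.00152). Against control, OSMI-2 gave a log2 difference of 0.35 (95% interval 0.05 to 0.65, adjusted p = 0.194), which was 0.083 when OSMI-2 replicate 1 was left out and 0.62 when its replicate 2 was. MT2A rose 1.59-fold with the combination against OSMI-2 (limma adjusted p = 0.000949), and the combination against AT7519 gave 0.39 (0.089 to 0.69, adjusted p = 0.0655). With equal totals, the rise with AT7519 (adjusted p = 0.105) and that against OSMI-2 (0.0655) were no longer called. In bulk RNA, a change in the number of cells and a change in the RNA per cell cannot be told apart.

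MT1F had the same order of group means at a much lower level. It stood at 948 and 667 normalised counts with the combination, 649 and 609 with AT7519, 725 and 425 with OSMI-2, and 404 and 505 in control. The OSMI-2 libraries overlapped the control libraries, and the other 2 treated groups lay above them. MT1F rose 1.76-fold with the combination against control (log2 change 0.82 ± 0.23 SE, limma adjusted p = 0.00722), and with AT7519 the difference was 0.48 ± 0.23 (adjusted p = 0.0916). The AT7519 difference was called with quantile normalisation (0.74, adjusted p = 0.0167) and without OSMI-2 replicate 1 (0.0478) or OSMI-2 replicate 2 (0.0453), and it was 0.32 without control replicate 1. The rise with the combination was no longer called without control replicate 1 (adjusted p = 0.0784) or without combination replicate 1 (adjusted p = 0.0941), with equal totals (adjusted p = 0.0562), or without the mean-variance trend of limma (adjusted p = 0.0710).

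MT1X, the third metallothionein tested among the members, was called in no comparison. It stood at 257 and 191 normalised counts with the combination, 221 and 303 with AT7519, 257 and 178 with OSMI-2, and 253 and 304 in control, and all 4 groups overlapped. None of its 6 comparisons was called: the lowest of their adjusted p-values was 0.278, for a log2 difference of -0.32 (95% interval -0.83 to 0.19) between the combination and control. The intervals for AT7519 against control (-0.61 to 0.41) and OSMI-2 against control (-0.89 to 0.14) include both a rise and a fall. Of the 50-base stretches of MT1X transcripts, 18.3% also occur in other genes, MT2A and MT1G among them, against 1.22% for MT1F and 3.02% for MT2A, so its reads could be assigned less surely. The stretches were pooled over all annotated transcripts of a gene, and the shares within the spliced mRNA alone were not measured. MT1E gave 6 reads over the 8 libraries, 0 in 5 of them and at most 4 in any, and no comparison was made for it.

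Dividing 1 member by another within a library removes the library scaling. MT2A over MT1X was 51.9 and 56.0 with the combination, 40.5 and 30.9 with AT7519, 35.3 and 35.1 with OSMI-2, and 23.4 and 19.3 in control. All 6 treated libraries lay above both control libraries. MT1F over MT1X had the same order of extremes, at 3.69 and 3.49 with the combination, 2.94 and 2.01 with AT7519, 2.82 and 2.39 with OSMI-2, and 1.59 and 1.66 in control. In these libraries both ratios separated every treated group from control, OSMI-2 included. They share the denominator MT1X, which is low and was called in no comparison, so they are not independent of each other. In OSMI-2 replicate 2, MT1F (425) lay between the control values (404 and 505), and MT1X (178) was at its lowest. No metallothionein was called for OSMI-2 against control, and the ratios were not tested.

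MTF1, the transcription factor that reads cellular zinc, fell under both treatments that contained AT7519. It stood at 967 and 1142 normalised counts with the combination, 1711 and 1548 with AT7519, 4168 and 4004 with OSMI-2, and 4448 and 4849 in control. The libraries with AT7519 lay far below those without it, and the combination libraries lay below the AT7519 libraries. MTF1 fell 4.42-fold with the combination against control (log2 change -2.14 ± 0.11 SE, limma adjusted p = 6.41e-09) and 2.85-fold with AT7519 against control (-1.51 ± 0.11, adjusted p = 1.43e-07). It fell 1.55-fold with the combination against AT7519 (-0.63 ± 0.11, limma adjusted p = 0.00143). OSMI-2 against control gave -0.18 (95% interval -0.42 to 0.05, adjusted p = 0.422). These falls held under every scaling tried.

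SLC30A1, the exporter and a target of MTF1, fell with MTF1, and the combination took it further than either agent alone. It stood at 1297 and 757 normalised counts with the combination, 2752 and 2145 with AT7519, 4851 and 4671 with OSMI-2, and 4482 and 5156 in control. The OSMI-2 libraries lay between the control libraries, and the combination libraries lay below all others. SLC30A1 fell 4.85-fold with the combination against control (log2 change -2.28 ± 0.19 SE, limma adjusted p = 2.56e-07), 1.98-fold with AT7519 against control (-0.98 ± 0.19, adjusted p = 0.000512), and 2.45-fold with the combination against AT7519 (-1.29 ± 0.19, adjusted p = 0.000476). The last of these was not called without the mean-variance trend of limma (adjusted p = 0.0564). OSMI-2 against control gave -0.014 (95% interval -0.42 to 0.39, adjusted p = 0.982).

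SLC30A1 was the 1 member called for a response to OSMI-2 that differed with and without AT7519. The interaction, that is the log2 change with OSMI-2 in the presence of AT7519 minus that in its absence, was -1.28 ± 0.27 SE (95% interval -1.85 to -0.71, limma adjusted p = 0.0361). Of all genes tested, 1.04% were called for the interaction (0.0619% higher, 0.975% lower). The call is weak: it was lost with no filter on low genes (adjusted p = 0.127), equal upper quartiles (0.0625), quantile normalisation (0.0612), no mean-variance trend (0.413) and DESeq2 (0.0736), and in 6 of the 8 fits that left out 1 library (control replicate 1, adjusted p = 0.208, control replicate 2, 0.122, OSMI-2 replicate 1, 0.174, OSMI-2 replicate 2, 0.156, AT7519 replicate 1, 0.113, and combination replicate 2, 0.0808). The value itself stayed between -1.67 and -0.89 in those fits. For MTF1 the interaction was -0.45 (95% interval -0.78 to -0.12, adjusted p = 0.263), for SLC39A7 it was -0.35 (adjusted p = 0.256), and for MT2A it was 0.036 (-0.39 to 0.46, adjusted p = 0.986).

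Ratios within a library also set the metallothionein against the sensor and the exporter. MT2A over SLC30A1 was 10.3 and 14.2 with the combination, 3.25 and 4.36 with AT7519, 1.87 and 1.34 with OSMI-2, and 1.32 and 1.14 in control. The 4 groups were in order with no overlap, but the lower OSMI-2 value (1.338) nearly met the higher control value (1.3225). Neither gene was called for OSMI-2 against control, and the ratios given here were not tested. MT2A over MTF1 was 13.8 and 9.40 with the combination, 5.23 and 6.04 with AT7519, 2.18 and 1.56 with OSMI-2, and 1.33 and 1.21 in control. Against the exporter, the importer SLC39A6 was 27.7 and 54.8 times as high in counts with the combination, 15.1 and 18.4 with AT7519, 5.22 and 5.95 with OSMI-2, and 5.74 and 5.35 in control.

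**Figure D2:**
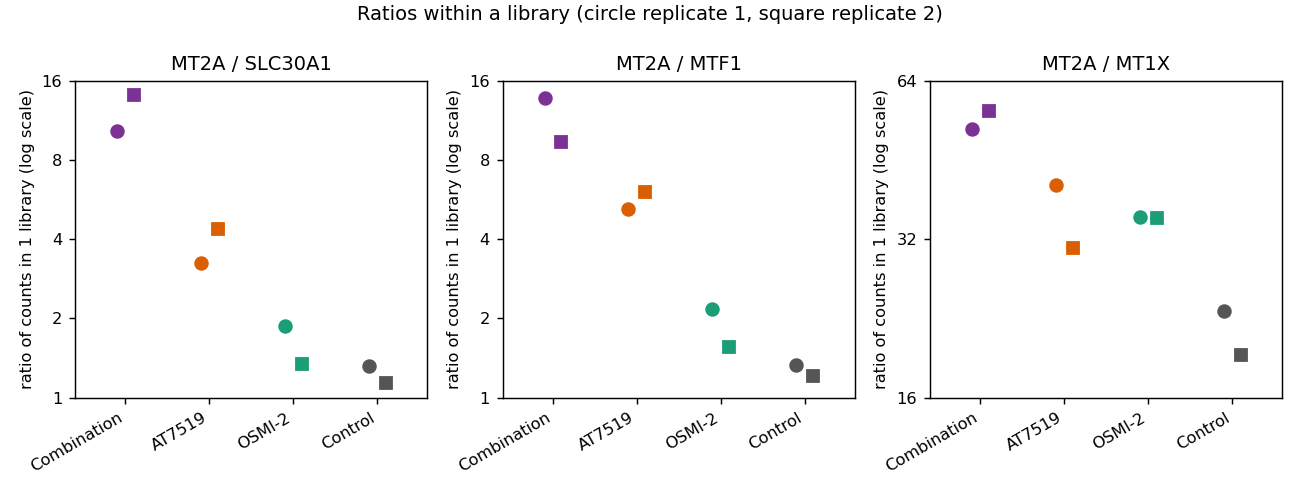
Ratios of counts between members within each library (vertical axes, log scale), for the combination, AT7519, OSMI-2 and control, with 1 point per library. MT2A over SLC30A1 ran between 10.3 and 14.2 with the combination and between 1.14 and 1.32 in control.

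The importers did not move as 1 group. SLC39A6 (ZIP6, first described as the oestrogen-regulated gene LIV-1 of breast cancer cells) stood at 35973 and 41470 normalised counts with the combination, 41564 and 39532 with AT7519, 25314 and 27814 with OSMI-2, and 25723 and 27558 in control. The 4 libraries with AT7519 lay above the 4 without it, and the OSMI-2 and control libraries overlapped. SLC39A6 rose 1.52-fold with AT7519 against control (log2 change 0.61 ± 0.083 SE, limma adjusted p = 3.12e-05), 1.45-fold with the combination against control (adjusted p = 8.29e-05) and 1.46-fold with the combination against OSMI-2 (adjusted p = 7.48e-05, or 0.103 with quantile normalisation). The combination against AT7519 gave -0.070 (95% interval -0.25 to 0.11, adjusted p = 0.617).

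SLC39A10 (ZIP10), the nearest relative of SLC39A6 and its partner in a complex at the plasma membrane, was higher with AT7519 than in control. It stood at 6226 and 7572 normalised counts with the combination, 8386 and 7270 with AT7519, 5227 and 6287 with OSMI-2, and 5723 and 6343 in control. The AT7519 libraries lay above the control libraries, and the combination libraries overlapped both. SLC39A10 rose 1.30-fold with AT7519 against control (log2 change 0.37 ± 0.12 SE, limma adjusted p = 0.0141). That call was lost without control replicate 1 (adjusted p = 0.117), without AT7519 replicate 1 (0.110), with equal totals (0.836) and without the mean-variance trend (0.0985). With the combination the difference from control was 0.19 (95% interval -0.06 to 0.44, adjusted p = 0.188).

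SLC39A1 (ZIP1), a plasma membrane importer studied for zinc uptake by prostate cells, was higher with AT7519 alone than in the other groups. It stood at 11912 and 13041 normalised counts with the combination, 17282 and 15400 with AT7519, 12338 and 12506 with OSMI-2, and 13624 and 12789 in control. SLC39A1 rose 1.24-fold with AT7519 against control (log2 change 0.31 ± 0.082 SE, limma adjusted p = 0.00610) and was 1.31-fold lower with the combination than with AT7519 (-0.39 ± 0.082, adjusted p = 0.00518). The rise was no longer called without control replicate 2 (adjusted p = 0.0592), without AT7519 replicate 1 (0.0620) or with quantile normalisation (0.811), and it turned to -0.038 with equal totals. The fall with the combination against AT7519 was not called with quantile normalisation (adjusted p = 0.0629) or without the mean-variance trend (0.0785). The gene overlaps CREB3L4 on the other strand and AL358472.7 on the same strand, and the strand used for counting is not given in the sources used here.

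SLC39A7 (ZIP7), which releases zinc from the endoplasmic reticulum, stayed within a narrow range. It stood at 8132 and 8734 normalised counts with the combination, 11089 and 10042 with AT7519, 9581 and 10141 with OSMI-2, and 10110 and 9285 in control. The combination libraries were the lowest 2 of the 8. SLC39A7 was 1.25-fold lower with the combination than with AT7519 (log2 change -0.32 ± 0.085 SE, limma adjusted p = 0.0159) and 1.17-fold lower than with OSMI-2 (-0.23 ± 0.085, adjusted p = 0.0351), and against control the difference was -0.20 (95% interval -0.38 to -0.02, adjusted p = 0.0584). That last difference was called with a minimum mean of 50 (adjusted p = 0.0491), equal totals (0.000269), quantile normalisation (0.0156), DESeq2 (0.0385), relative to mitochondrial mRNAs, and without AT7519 replicate 1 (0.0441) or AT7519 replicate 2 (0.0440). The first of these calls was lost without AT7519 replicate 1 (adjusted p = 0.111), without combination replicate 1 (0.0927) and under 4 other settings, and the second without OSMI-2 replicate 1 (0.0639), OSMI-2 replicate 2 (0.191) or combination replicate 1 (0.185) and under 3 other settings. RXRB overlaps the gene on the other strand.

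**Figure D3:**
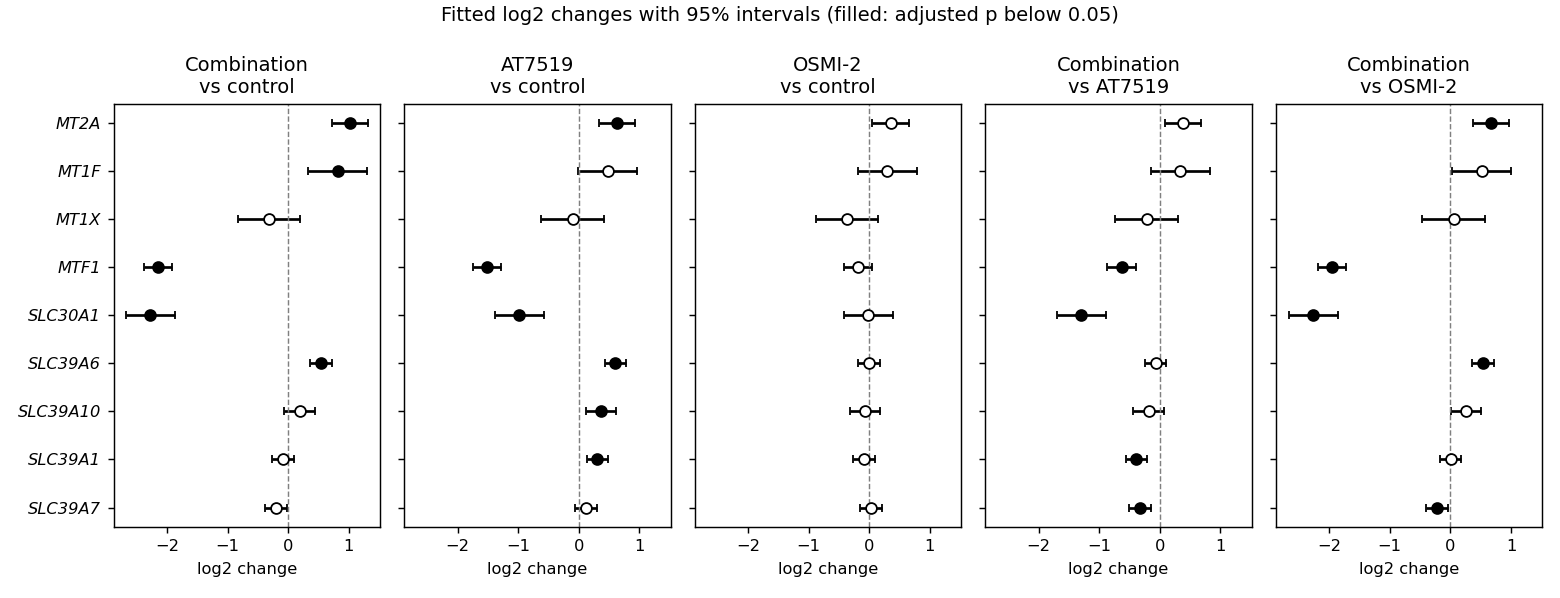
Fitted log2 changes (horizontal axes) of the 9 tested members with 95% intervals on the deposited scaling, filled where the limma adjusted p lay below 0.05. MTF1 and SLC30A1 lay furthest to the left, at -2.14 and -2.28 for the combination against control, and MT2A furthest to the right, at 1.02, which became 0.043 relative to mitochondrial mRNAs.

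With the combination against control, 3 of the 9 tested members rose and 2 fell, in a comparison that called 53.9% of all genes tested (26.3% higher, 27.6% lower). With AT7519 against control, 4 rose and 2 fell, beside 53.2% of all genes (26.0% higher, 27.2% lower). The members' count against control is thus near that of all genes in both. OSMI-2 against control called 0 members by limma, and 0 by edgeR and DESeq2, with 1 at an unadjusted p below 0.05 (MT2A) and 3.02% of all genes called (0.645% higher, 2.38% lower). With the combination against AT7519, 0 rose and 4 fell (MTF1, SLC30A1, SLC39A1 and SLC39A7), where 19.7% of all genes were called (7.21% higher, 12.5% lower). With the combination against OSMI-2, 2 rose and 3 fell, beside 54.8% of all genes (27.5% higher, 27.3% lower). The median log2 change of the members was -0.083 with the combination and 0.31 with AT7519 against control, while the medians of all genes were 0.022 and -0.0042. The 3 comparisons with control share the control libraries.

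The directions of the rises depend on how libraries are put on 1 scale. When every library was given the same total, the median log2 change of all genes was -0.23 for the combination and -0.34 for AT7519 against control, and when libraries were set equal on their 13 mitochondrial mRNAs it was -0.95 and -0.91. Mitochondrial mRNAs took 6.57 to 7.73% of the reads with AT7519 present and 4.45 to 5.53% without it. With equal totals, 2 members rose and 4 fell with the combination, beside 13.7% of all genes higher and 38.0% lower, and 1 rose and 3 fell with AT7519, beside 10.5% higher and 43.1% lower. Relative to mitochondrial mRNAs, 0 rose and 7 fell with the combination, beside 2.19% of all genes higher and 75.2% lower, and 0 rose and 9 fell with AT7519, beside 1.97% higher and 75.6% lower. On that last scale MT2A stood at 0.043 (adjusted p = 0.770) with the combination and -0.28 (adjusted p = 0.0397) with AT7519. These values are 0.99 and 0.63 above the median of all genes on the same scale. Likewise SLC39A6 stood at -0.44 and -0.31, which are 0.51 and 0.60 above that median. A scaling by 1 factor per library moves all genes nearly alike, so these distances could hardly differ from those on the deposited scaling. They are thus no test of the rises. Quantile normalisation can change them. With it MT2A lay 0.92 and 0.48, and SLC39A6 0.17 and 0.14, above the median with the combination and with AT7519. MTF1 and SLC30A1 fell with the combination and with AT7519 under all 5 scalings.

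**Figure D4:**
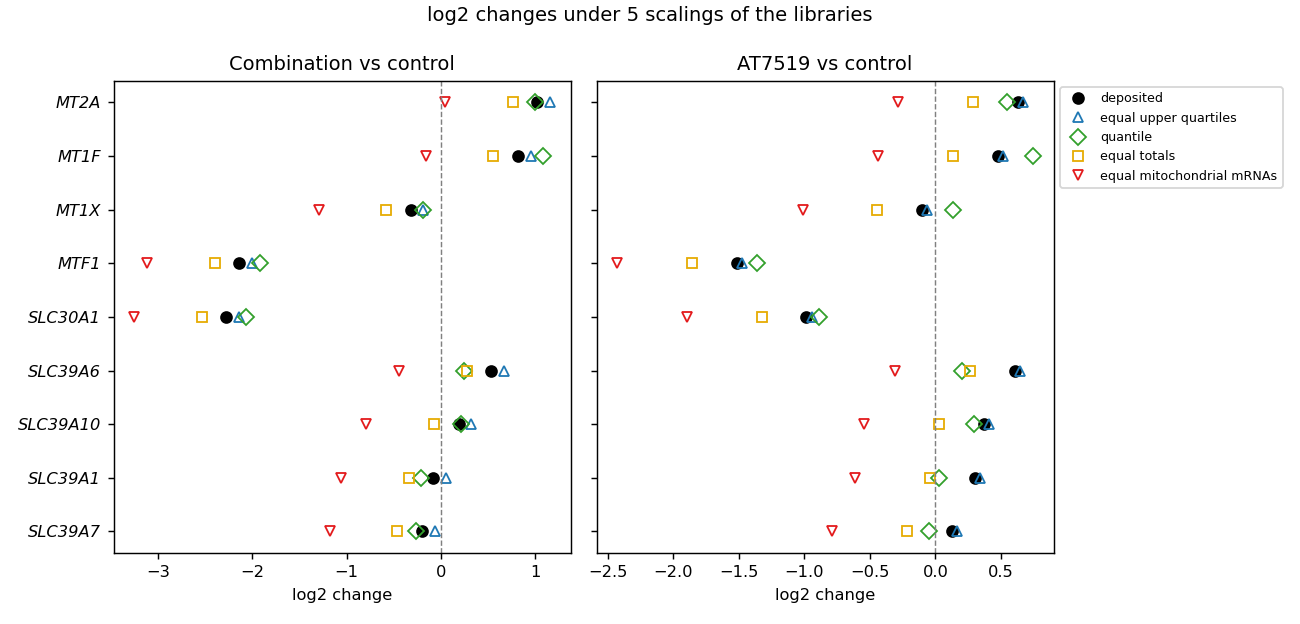
Log2 changes (horizontal axes) of the members against control under 5 scalings of the libraries, for the combination and for AT7519. All points of MTF1 and SLC30A1 lie below 0, while MT2A with AT7519 ranges from 0.67 with equal upper quartiles to -0.28 relative to mitochondrial mRNAs.

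The list of 34 other zinc genes held metallothionein genes and pseudogenes, zinc transporters, TMEM163 and the zinc-sensing receptor GPR39. Of these, 33 were in the table, 4 of which were at 0 in every library. In all, 20 could be tested, the pseudogene MT1DP among them. With the combination against control 5 of the 20 rose and 5 fell, beside 26.3% of all genes higher and 27.6% lower. With AT7519 8 rose and 5 fell, beside 26.0% of all genes higher and 27.2% lower. OSMI-2 called 0 (3 at an unadjusted p below 0.05, and 0 by edgeR and DESeq2), beside 0.645% of all genes higher and 2.38% lower. With equal totals these splits became 2 higher and 6 lower for the combination and for AT7519 alike. Of all genes, 13.7% were then higher and 38.0% lower with the combination, and 10.5% higher and 43.1% lower with AT7519. Relative to mitochondrial mRNAs the splits were 0 higher and 16 lower for the combination and 0 higher and 12 lower for AT7519. On that scale 75.2% and 75.6% of all genes were lower too.

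Of the 16 other zinc genes averaging 50 or more normalised counts, all but MT1G, MT1DP and TMEM163 were SLC30 or SLC39 genes. The 4 largest of their 5 called falls against control were SLC30 genes, with the combination and with AT7519. The other fall was SLC39A14 in both. Of all genes tested, 27.6% and 27.2% were called lower. SLC30A4 (ZnT4), which loads zinc into vesicles, stood at 11747 and 12948 normalised counts with the combination, 12802 and 9961 with AT7519, 39370 and 43878 with OSMI-2, and 37861 and 33298 in control. The 4 libraries with AT7519 lay below the 4 without it. It fell 3.14-fold with AT7519 against control (log2 change -1.65 ± 0.11 SE, limma adjusted p = 7.36e-08) and 2.88-fold with the combination (-1.53 ± 0.11, adjusted p = 7.74e-08). SLC30A10, which exports manganese, fell by 1.64 on the log2 scale with the combination and by 1.54 with AT7519. SLC30A7 (ZnT7) of the Golgi fell by 1.02 and by 0.60, and SLC30A6 (ZnT6) of the secretory pathway by 0.46 and by 0.43. The family did not move as 1: SLC30A9, a mitochondrial zinc exporter, rose by 0.40 with the combination and by 0.40 with AT7519 on the deposited scaling (limma adjusted p = 0.000484 and 0.000467), turning to -0.58 and -0.51 relative to mitochondrial mRNAs. With equal totals neither rise was called (adjusted p = 0.116 and 0.504), nor with quantile normalisation (0.0704 and 0.4996). For SLC30A5 the differences were -0.0025 (95% interval -0.20 to 0.20) and -0.021 (-0.22 to 0.18). SLC30A7 was also lower with the combination than with AT7519, by a log2 change of -0.42 (limma adjusted p = 0.00731), a call lost without AT7519 replicate 1 (0.0586) and without the mean-variance trend (0.0665).

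Of the 4 largest rises against control, 3 were SLC39 genes with the combination and 3 with AT7519. SLC39A3 (ZIP3) rose by log2 changes of 0.52 with the combination and 0.85 with AT7519 against control, and SLC39A4, the intestinal zinc importer that is mutated in acrodermatitis enteropathica, by 0.65 and 0.68. These rises turned to -0.45 and -0.063 for SLC39A3, and to -0.33 and -0.23 for SLC39A4, relative to mitochondrial mRNAs. SLC39A8, which carries zinc and manganese, rose by 0.52 with AT7519 (-0.39 relative to mitochondrial mRNAs), and SLC39A11 by 0.51 with the combination (-0.47 on that scale). With equal totals neither was called (adjusted p = 0.136 for SLC39A8 and 0.0538 for SLC39A11). SLC39A3 was lower with the combination than with AT7519, by a log2 change of -0.33 (limma adjusted p = 0.0398). That call was not made in 5 of the 8 fits without 1 library (-0.20 without AT7519 replicate 1). It was also lost with no filter (adjusted p = 0.0706), equal totals (0.111), equal upper quartiles (0.141) and quantile normalisation (0.188). The same held without the mean-variance trend (0.148) and with edgeR (0.0573). SLC39A14, which carries zinc and iron, fell by 0.35 with the combination (adjusted p = 0.00236) and by 0.22 with AT7519 (adjusted p = 0.0378), the second lost without any 1 of the control or AT7519 libraries (adjusted p = 0.0709 and 0.177 without control replicates 1 and 2, 0.0646 and 0.119 without AT7519 replicates 1 and 2), with no filter (0.0701), with equal upper quartiles (0.0764) and without the mean-variance trend (0.119). TMEM163, a zinc efflux protein, was called with AT7519 at 0.87 (limma adjusted p = 0.0474), a call that 6 of the 8 fits without 1 library did not make. It was also lost with no filter (adjusted p = 0.120), equal totals (0.213), edgeR (0.0521) and DESeq2 (0.0836).

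Among the other metallothioneins, MT1G was the most abundant. It stood at 1242 and 1012 normalised counts with the combination, 1036 and 958 with AT7519, 863 and 617 with OSMI-2, and 736 and 810 in control. On the deposited scaling MT1G rose 1.45-fold with the combination against control (limma adjusted p = 0.0116, turning to a log2 change of -0.44 relative to mitochondrial mRNAs), which was lost without control replicate 1 (0.0846) or combination replicate 1 (0.112), with equal totals (0.169) and without the mean-variance trend (0.0635). On the deposited scaling it also rose 1.54-fold with the combination against OSMI-2 (adjusted p = 0.00478, turning to -0.23 relative to mitochondrial mRNAs), which was lost without OSMI-2 replicate 2 (0.0971) or combination replicate 1 (0.0569) and with equal totals (0.161). Of its 50-base stretches, pooled over all its annotated transcripts, 16.5% occur in other genes, MT2A among them.

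**Figure D5:**
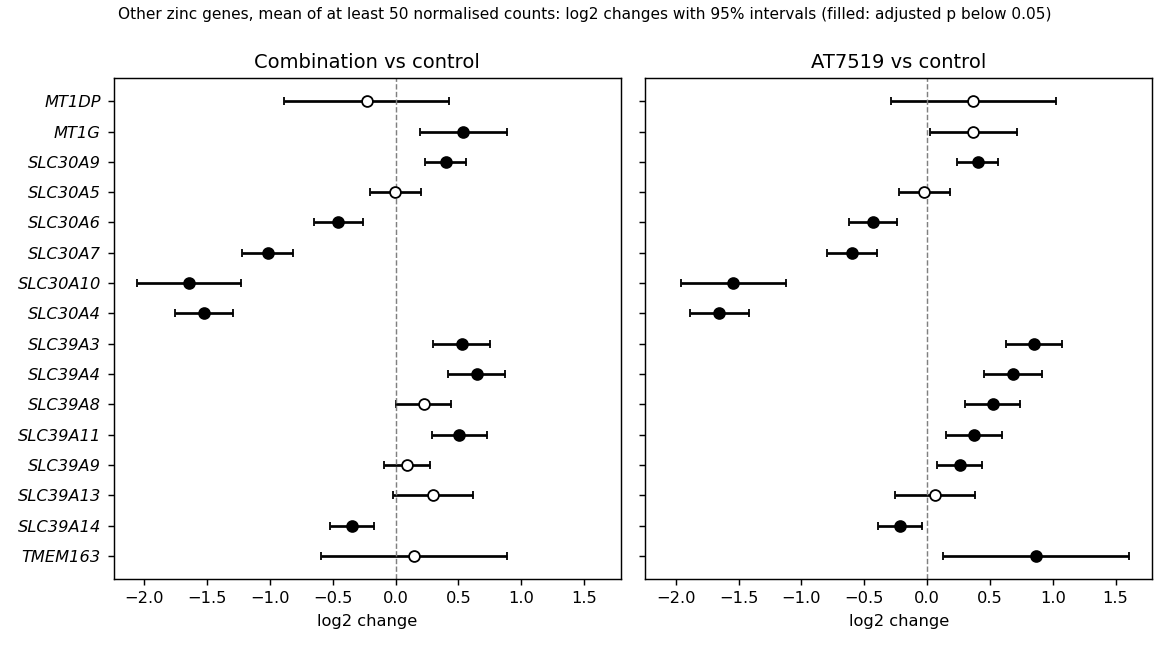
Fitted log2 changes (horizontal axes) with 95% intervals of the other zinc genes averaging 50 or more normalised counts, for the combination and AT7519 against control on the deposited scaling, filled where the limma adjusted p lay below 0.05. SLC30A4 lay at -1.53 and -1.65, opposite to SLC39A4 at 0.65 and 0.68, which became -0.33 and -0.23 relative to mitochondrial mRNAs.

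Over the 8 libraries, which share 4 treatments, MTF1 and SLC30A1 had a Pearson r of 0.93 in log2 values, and MT1F and MT2A had 0.94. MT2A and MTF1 had -0.89, MT2A and MT1X -0.032, and SLC39A6 and SLC39A10 0.89. Of all genes with a mean of at least 50, those most like MT2A were AARS (r = 0.989), which charges alanine to its transfer RNA, PASK (0.981), a metabolic sensor kinase, and TMEM194B (0.978). Those most like SLC30A1 were LCOR (0.999), a nuclear receptor corepressor, BTG1 (0.998), an antiproliferative gene, and KBTBD7 (0.998). For SLC39A10 they were GSTA4 (0.974), REEP3 (0.974) and P4HA1 (0.968). The values are descriptions of these libraries.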

How the data were processed

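Strand-specific TruSeq RNA libraries were sequenced, per the labels' protocols. The authors deposited 1 table of signal per gene and library, normalised counts, and the submitters' processing notes name the tools STAR, HTSeq and DESeq2 with hg19 and GRCh37 as builds. The sources used here do not give versions, annotation or counting strand. Dividing each column by its smallest step gave whole reads for 100% of values within 0.01, so depth was recovered; 28 lines without a gene name were dropped. Replicates differed by more than counting error.

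The 19393 genes averaging 10 or more normalised counts were fitted in 1 model of the 4 group means with limma 3.58.1 in R 4.3.3 on log2(value + 1) with a mean-variance trend (4 residual and 10.1 prior degrees of freedom). A fold on this scale understates the change of low genes. The 6 comparisons used two-sided p-values with Benjamini-Hochberg adjustment over all genes tested. Alternatives changed the pseudocount, the filter, the scaling, the trend, the replicate block and the libraries, and ran edgeR 4.0.16 and DESeq2 1.42.0 on recovered reads. Per-kilobase levels and overlaps used exon lengths and spans of GENCODE 29 by symbol. Ratios were taken between normalised counts and were not corrected for length. Start regions came from RefSeq (GRCh38.p14) and are no positions in the authors' build.

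All members are named. Of the other zinc genes, those named are in each comparison up to 4 called rises and 4 called falls, the largest, with a mean of at least 50, and genes most like a member are the 3 with the highest r. For the combination against OSMI-2 only part of these is given. SLC30A9, SLC30A5, SLC39A14 and MT3 against control were added after their values were seen. The members and lists were chosen with earlier results of these data known.

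Same-numbered libraries of 2 groups deviated together with correlations of 0.021 to 0.12, so the numbers were not taken as pairs.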

Additional observations from a re-analysis of the deposited data

Results flagged for a closer look

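SLC30A1 was picked out because its interaction of OSMI-2 and AT7519 was called, at -1.28 on the log2 scale (limma adjusted p = 0.0361). The call is weak: it was lost with no filter on low genes (limma adjusted p = 0.127), equal upper quartiles (0.0625) and quantile normalisation (0.0612). It was also lost without the mean-variance trend (0.413) and with DESeq2 (0.0736). Leaving out 1 library gave -1.67 to -0.89. With AT7519 present the log2 change with OSMI-2 was -1.29, and without AT7519 it was -0.014. Both combination libraries (1297 and 757 normalised counts) lay below both AT7519 libraries (2752 and 2145), while the OSMI-2 libraries (4851 and 4671) lay between the control libraries (4482 and 5156).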

How the results depend on the processing

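Of the 66 log2 changes examined, all kept direction and call with a pseudocount of 0.5, 65 with 5, and 64 with a minimum mean of 50. With edgeR 63 and with DESeq2 61 did, and none reversed under either. Relative to mitochondrial mRNAs 28 reversed. These were, with AT7519 against control, MT1F (-0.44), MT1G (-0.55), MT2A (-0.28), SLC30A9 (-0.51), SLC39A1 (-0.61), SLC39A10 (-0.54), SLC39A3 (-0.063), SLC39A4 (-0.23), SLC39A6 (-0.31), SLC39A7 (-0.79), SLC39A8 (-0.39) and TMEM163 (-0.032). With the combination against control they were MT1F (-0.16), MT1G (-0.44), SLC30A9 (-0.58), SLC39A10 (-0.79), SLC39A11 (-0.47), SLC39A3 (-0.45), SLC39A4 (-0.33) and SLC39A6 (-0.44). With the combination against OSMI-2 they were MT1F (-0.33), MT1G (-0.23), MT2A (-0.18), SLC30A9 (-0.39), SLC39A10 (-0.59), SLC39A3 (-0.27), SLC39A4 (-0.19) and SLC39A6 (-0.31). With equal totals, SLC39A1 (-0.038) and SLC39A7 (-0.22) with AT7519 and SLC39A10 (-0.070) with the combination reversed against control, as did SLC39A10 (-0.074) with the combination against OSMI-2, and with equal upper quartiles SLC39A1 with the combination (0.054) did. Quantile normalisation reversed MT1X (0.13) and SLC39A7 (-0.049) with AT7519 and the MT2A interaction (-0.021). Leaving out 1 library gave MT1X with AT7519 -0.33 to 0.13 and the MT2A interaction -0.23 to 0.31. These reversals come from the scaling or the samples used, and which scaling is right was not tested.

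Members called with the combination against AT7519 numbered 2 with quantile normalisation and 1 without the trend, and 3 to 5 without 1 library. The interaction called 0 members with no filter, equal upper quartiles, quantile normalisation, no trend or DESeq2, and 0 to 1 without 1 library. Other zinc genes called with AT7519 against control numbered 8 with equal totals and 8 to 13 without 1 library; with the combination against control 16 relative to mitochondrial mRNAs; with the combination against AT7519 1 with no filter, equal totals, equal upper quartiles, quantile normalisation or edgeR, 0 without the trend, and 0 to 4 without 1 library; for the interaction 1 with DESeq2 and 0 to 1 without 1 library. With the replicate block, members called numbered 0 for OSMI-2, 6 for AT7519 and 5 for the combination against control, 5 for the combination against AT7519, 7 for the combination against OSMI-2 and 1 for the interaction. Among the members the block added calls for MT2A with the combination against AT7519 (adjusted p = 0.0232), and for MT1F (adjusted p = 0.0350) and SLC39A10 (adjusted p = 0.0460) with the combination against OSMI-2. Among the other zinc genes it added MT1G with AT7519 against control (adjusted p = 0.0411) and SLC39A8 with the combination against AT7519 (adjusted p = 0.0318), and it changed no other call of the members or of these genes. MT2A with the combination against AT7519 was also called with equal totals, equal upper quartiles, edgeR and DESeq2, and without either OSMI-2 library. Where 1 library was left out, the lone library of its group was assumed to vary like the others. Differences in genes as low as MT1E were not detectable at this depth.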
